A study of Mus musculus with 6 samples.

Results

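Solute carriers are the membrane proteins that move amino acids, sugars, ions, vitamins and metabolites into and out of cells and organelles, and they are named by family number, the letter a and member number. They were examined in cortical bone treated with parathyroid hormone (PTH). A gene was counted as a detected solute carrier if its symbol had that form and at least 1 of its probes had a detection p-value, the array's own measure of signal above the negative control beads, under 0.05 on all 6 arrays. The phosphate carriers Slc20a1 and Slc20a2 and the iron exporter Slc40a1 were set aside. Of the 265 remaining solute carrier symbols on the array, 100 met this criterion, among 9626 such genes of 31508 symbols. The members were thus chosen by the detection p-values of both groups, so their being detected is not a finding.

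Tibia and femur shafts of 3-month-old C57BL6 mice were freed of marrow and surface cells by flushing and repeated collagenase and trypsin digestion, which leaves bone tubes with osteocytes in the matrix. The tubes were cultured for 24 hours untreated (control, 3 arrays) or with 250 nM PTH 1-34, the active amino-terminal fragment of the hormone (PTH, 3 arrays). No transgene or mutant allele was named for either group. Each RNA preparation pooled bones of 4 to 5 mice, and no label says whether the 3 preparations of a group were made independently, so p-values measure the spread between these arrays. Values are normalized log2 signals, and a difference is PTH minus control. The PTH 1-34 and control arrays had 34.2 to 38.4% of 45281 probes detected, with a median linear signal between 111 and 129.

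In bone, PTH signals through a receptor that raises cyclic AMP, and osteocytes carry that receptor. Carriers set what bone cells can take up for matrix synthesis, which draws on amino acids and vitamins, and for the acid, bicarbonate and chloride traffic of bone resorption. Transporters of serotonin and glutamate, best known in the nervous system, are also expressed by cells of bone and marrow.

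The tubes held RNA of more than osteocytes. Of 10 osteocyte and osteoblast markers, 9 were tested and Runx2 was detected on no array. Their summed signal was 30367 to 31715 in control and 16513 to 17852 with PTH, and 3 of the 9 were called lower. Neutrophil markers summed to 53061 to 53931 in control and 34205 to 38787 with PTH, with 4 of 7 called lower. The 2 red cell markers tested were both lower, and their list summed to 8640 to 10073 against 2428 to 2694, with Epb4.2 and Klf1 among those detected on no array. Osteoclast markers summed to 11825 to 13333 against 15907 to 20513, with 3 of 4 called higher and Calcr and Atp6v0d2 detected on no array. Of 6 macrophage and 5 endothelial markers none was called (3 and 0 at an unadjusted p under 0.05), and 6 of 7 skeletal muscle markers were detected on no array. The cartilage, fat and B lymphocyte lists had 2 markers tested each, none called (1, 2 and 1 at an unadjusted p under 0.05). Over all genes tested, 1.04% were called lower, 0.685% were called higher and 14.9% reached an unadjusted p under 0.05. In such pooled tissue, fewer cells of a type and less RNA per cell cannot be told apart. The part of these shifts in the carrier values was not tested.

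Among the 100 detected carriers, the serotonin transporter Slc6a4 and the glutamate and aspartate transporter Slc1a3 were higher with PTH, and the neutral amino acid exchanger subunit Slc7a8 was lower, at a limma adjusted p under 0.05. That is 3 of 100, beside 1.75% of the 9626 genes detected on all 6 arrays and 1.73% of all 11979 genes tested (0.685% higher and 1.04% lower). By direction this is 2 of 100 higher, beside 0.665% of genes detected on all 6 arrays, and 1 of 100 lower, beside 1.08%. An unadjusted p under 0.05 was reached by 17 carriers, 8 higher and 9 lower, beside 14.7% of genes detected on all 6 arrays. The 3 PTH arrays lay entirely on one side of the 3 control arrays for 22 carriers, 9 higher and 13 lower, beside 23.6% of genes detected on all 6 arrays (12.1% higher and 11.5% lower). These shares are close to those of genes in general. The median log2 difference over the carriers was -0.06, against 0.01 over all genes detected on all 6 arrays. Of the carriers, 59 lay below 0, beside 48.3% of those genes. For 57 carriers the 95% confidence interval lay inside a 1.5-fold change in either direction, while 6 had estimates beyond 1.5-fold, which is 6% beside 4.58%. The standard error of a carrier's difference was between 0.11 and 0.30, with a median of 0.15. An exact permutation test of 3 against 3 arrays cannot give a p below 0.1, so calls rest on the fit that pools the spread over all probes.

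**Figure D1:**
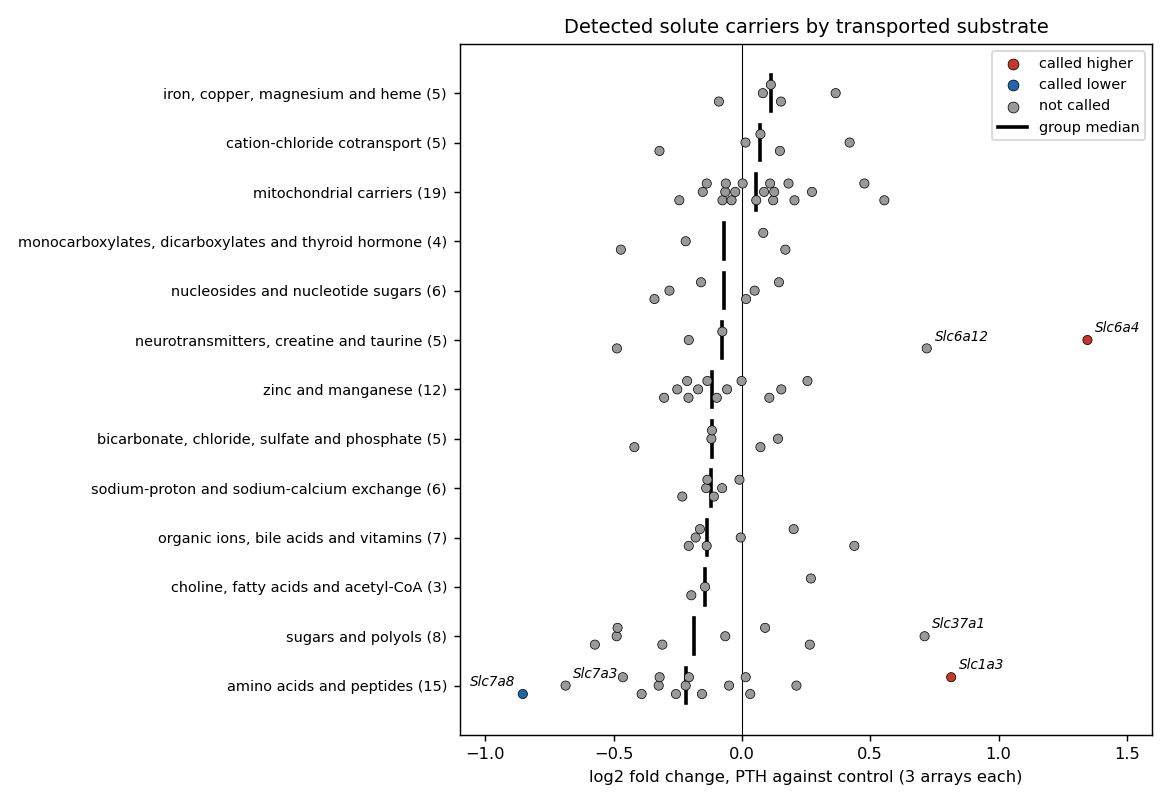
Each point is 1 of the 100 detected carriers, placed by its log2 fold change (x axis, PTH against control, 3 arrays each) in the row of its transported substrate, with the number of carriers in parentheses and a black bar at the group median. Most points lie between -0.5 and 0.5, and Slc6a4 at 1.35 stands farthest from 0.

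Slc6a4, which clears serotonin from outside the cell and is the target of serotonin reuptake inhibitors, showed the largest difference among the detected carriers. It read 5.79, 5.82 and 5.70 in control and 7.37, 7.20 and 6.77 with PTH. All PTH values lay above all control values, by more than the spread within either group. The means were 5.77 ± 0.06 and 7.12 ± 0.31 (SD, n = 3), a 2.54-fold rise (log2 difference 1.35, SE 0.17, 95% confidence interval 0.95 to 1.74, limma adjusted p 0.0118). On the deposited linear scale, before background correction, the signals were 143, 161 and 142 in control and 223, 239 and 252 with PTH. The size of the rise differed between processing settings, at 0.65 on the log2 scale with quantile normalization alone and 0.97 with a larger offset. The adjusted p was above 0.05 when Control 1, Control 2, Control 3 or PTH 2 was left out (0.0526 to 0.0629) and below it without PTH 1 or PTH 3. A second Slc6a4 probe was detected on no array.

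Slc6a4 is also known from platelets, mast cells and serotonin-producing cells, and lists of their genes, drawn up after the Slc6a4 values were seen, were read on the same arrays. Platelet and megakaryocyte markers summed to 989 to 1207 in control and 676 to 780 with PTH, with 4 tested and none called (2 at an unadjusted p under 0.05). Of 10 mast cell genes 6 were detected on no array, including the proteases Cpa3, Mcpt4 and Mcpt6 and the IgE receptor subunits Fcer1a and Ms4a2, and the list summed to 709 to 800 against 630 to 796. Of the 3 mast cell genes tested, the protease Mcpt1 was called higher and the others were not called. Mcpt1 went from 4.73 ± 0.18 to 6.85 ± 0.14 (log2 difference 2.12, limma adjusted p 0.000747). It was detected on the 3 PTH arrays and on no control array, so it was tested only through the PTH arrays. Its control level is only a bound. The growth factor receptor Kit differed by -0.37 and the histamine synthesis enzyme Hdc by -0.54, with adjusted p of 0.259 and 0.273. Of 10 genes of serotonin synthesis, storage, breakdown and reception, the synthesis genes Tph1, Tph2 and Ddc, the vesicle carriers Slc18a1 and Slc18a2 and the oxidase Maoa were detected on no array, and neither of the 2 tested was called, nor reached an unadjusted p of 0.05 (summed signal 234 to 277 against 254 to 266). Among the lists given earlier, osteoclast markers summed higher with PTH, and osteocyte and osteoblast, neutrophil and red cell markers summed lower. The part of any of these cell types, or of serotonin-producing cells, in the Slc6a4 value was not tested.

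The other carriers of neurotransmitters and small osmolytes went in both directions, and 4 of the 5 in this group had arrays that did not overlap, beside 23.6% of genes detected on all 6 arrays. Slc6a12, the betaine and GABA transporter, falls outside the rule for naming genes and was picked after its values were seen. It read 5.52, 5.89 and 5.60 in control and 6.28, 6.44 and 6.45 with PTH, a difference of 0.72 (SE 0.14) that missed the limit at an adjusted p of 0.0581. Slc6a9, which takes up glycine, differed by -0.49 (SE 0.13, adjusted p 0.133), from 9.94 ± 0.08 to 9.45 ± 0.14. The creatine transporter Slc6a8 differed by -0.08 and the taurine transporter Slc6a6 by -0.21, neither past the limit. The group median was -0.08.

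**Figure D2:**
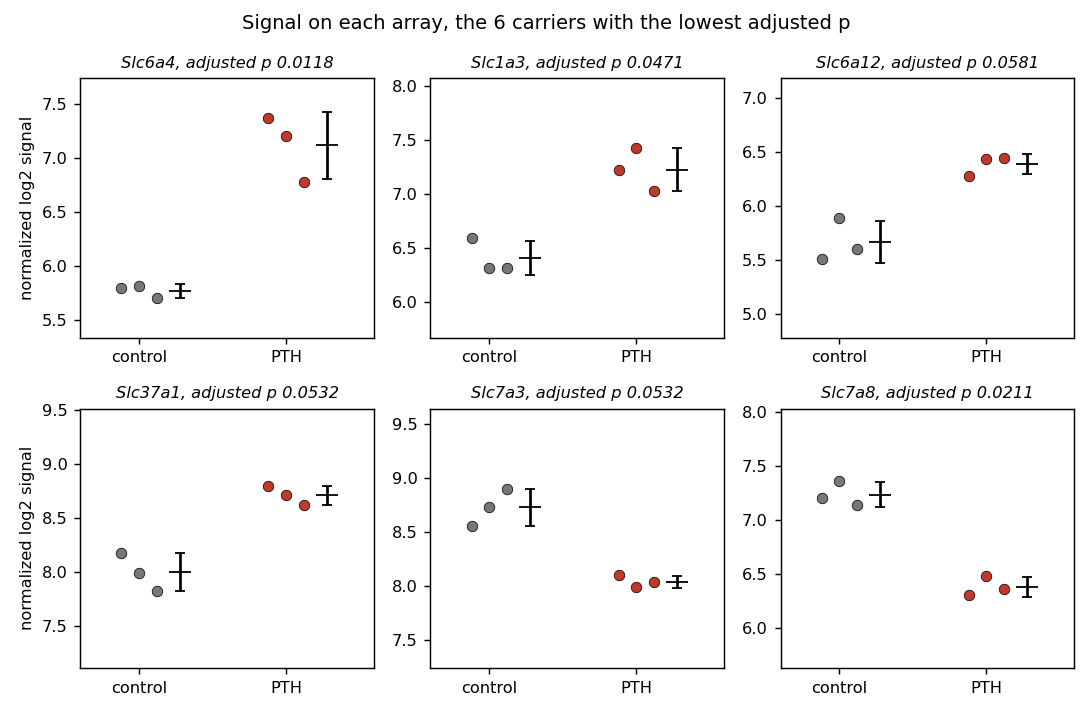
Normalized log2 signal (y axis, each panel spanning the same range) on each of the 3 control (grey) and 3 PTH (red) arrays for the 6 carriers with the lowest adjusted p, with the mean and SD beside the points. In every panel the groups are separate, and for Slc6a12, Slc37a1 and Slc7a3 the adjusted p was nonetheless between 0.0532 and 0.0581.

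Amino acid and peptide carriers had a median of -0.22 over 15 genes. Of these, 11 lay below 0, beside 48.3% of genes detected on all 6 arrays. Slc1a3 was called higher and Slc7a8 lower, and in 6 of the 15 the arrays did not overlap, 1 higher and 5 lower, beside 12.1% higher and 11.5% lower of genes detected on all 6 arrays. The median was -0.12 with quantile normalization alone. Scaling each array to its median gave -0.10, while the same scaling moved the median of all genes to 0.12.

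Slc1a3, a sodium-driven importer of glutamate and aspartate, read 6.59, 6.32 and 6.31 in control and 7.22, 7.42 and 7.03 with PTH. The lowest PTH array was above the highest control array. The means of 6.41 ± 0.16 and 7.22 ± 0.20 (SD, n = 3) differed by 1.76-fold (log2 difference 0.82, SE 0.15, 95% confidence interval 0.46 to 1.17, adjusted p 0.0471). The call sat at the limit, and leaving out any of the 6 arrays took the adjusted p to between 0.0685 and 0.172. It was also above 0.05 in 4 of 9 other limma settings, up to 0.106, and the difference was 0.44 with quantile normalization alone.

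Slc7a8 is the transport subunit of an exchanger of large neutral amino acids and pairs with the heavy chain Slc3a2. Its values were 7.21, 7.36 and 7.14 in control and 6.30, 6.49 and 6.36 with PTH. The groups were separated by more than the range within either. The means of 7.24 ± 0.11 and 6.38 ± 0.09 (SD, n = 3) gave a 1.81-fold fall (log2 difference -0.85, SE 0.13, 95% confidence interval -1.15 to -0.56, adjusted p 0.0211). Leaving out any of the 6 arrays took the adjusted p to between 0.0571 and 0.0999, and median scaling to 0.338. The difference was -0.46 with quantile normalization alone. A second Slc7a8 probe, detected on 2 control and all 3 PTH arrays, lay on the other side of 0 at 0.30 (95% confidence interval -0.11 to 0.70, adjusted p 0.497), so the probes of this gene disagree.

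Slc7a3, a carrier of the cationic amino acids arginine, lysine and ornithine, read 8.56, 8.73 and 8.90 in control and 8.10, 7.99 and 8.04 with PTH. It was lower on every PTH array, with a difference of -0.69 (SE 0.13) and an adjusted p of 0.0532. On the linear scale before normalization its groups overlapped, since PTH 3 at 466 was above Control 1 at 398. Slc7a5, another transport subunit that pairs with Slc3a2, went from 11.48 ± 0.16 to 11.02 ± 0.19 (difference -0.46, adjusted p 0.208). Slc3a2 itself differed by -0.26 (adjusted p 0.732), and this value came from PTH 2 at 6.84, beside 7.84 and 7.87 on the other PTH arrays. Without PTH 2 the Slc3a2 difference was 0.08.

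For 5 of the 15 amino acid carriers the confidence interval lay inside 1.5-fold. Slc6a15 differed by -0.39 (95% confidence interval -0.81 to 0.03) and Slc43a1 by -0.32 (-0.79 to 0.14), both carriers of neutral amino acids. The cystine importer Slc7a11 differed by 0.03 (95% confidence interval -0.39 to 0.45), the glutamine importer Slc38a2 by 0.01 (-0.33 to 0.36) and the alanine and serine exchanger Slc1a4 by -0.16 (-0.45 to 0.14). Slc7a7, which pairs with Slc3a2 to export cationic amino acids, differed by 0.21 (adjusted p 0.594). The lysosomal peptide and histidine carriers Slc15a3 and Slc15a4, named after their values were seen, had separate groups with small differences of -0.32 and -0.22. The glutamine carrier Slc1a5 was detected on 1 array and the arginine carrier Slc7a1 on none.

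Genes of the amino acid response, whose regulators Atf4 and Ddit3 act on several amino acid carriers, were read beside them. Of 18 genes 16 were tested, and 2 were called lower, beside 1.04% of all genes tested. An unadjusted p under 0.05 was reached by 8, beside 14.9% of all genes tested. Trib3, a pseudokinase induced by amino acid shortage and stress, went from 10.48 ± 0.08 to 9.65 ± 0.06 (log2 difference -0.82, adjusted p 0.019), and the stress-induced factor Atf3 from 6.43 ± 0.25 to 5.42 ± 0.14 (-1.01, adjusted p 0.0282). Atf4 differed by -0.08, Ddit3 by -0.51 (adjusted p 0.271), asparagine synthetase Asns by -0.21 (adjusted p 0.497) and the serine synthesis enzyme Phgdh by -0.49 (adjusted p 0.222). Pycr1 differed by -0.60 (adjusted p 0.171), Aldh18a1 by -0.45 (adjusted p 0.242) and Vldlr by -0.36 (adjusted p 0.273). Among the 8, the stress-induced growth regulator Ddit4 alone was higher, by 0.40 (adjusted p 0.259). The list's median was -0.22.

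**Figure D3:**
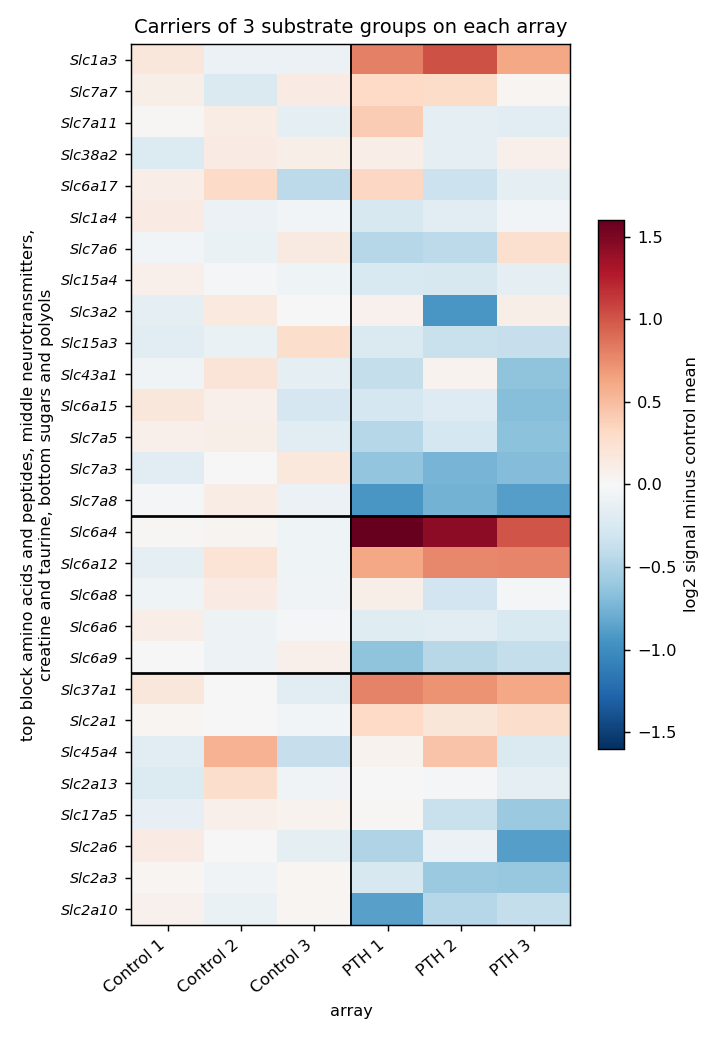
Log2 signal on each array minus the control mean of the same gene (colour, red above and blue below) for the 15 amino acid and peptide, 5 neurotransmitter and 8 sugar carriers, ordered within each block by fold change. Slc1a3, Slc6a4, Slc6a12 and Slc37a1 are red on all 3 PTH arrays, Slc7a8 and Slc7a3 are blue on all 3, and the Slc3a2 row is blue on PTH 2 alone.

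Sugar carriers differed in both directions, with none called. An unadjusted p under 0.05 was reached by 4 of 8, beside 14.7% of genes detected on all 6 arrays. Slc37a1, a glucose-6-phosphate and phosphate exchanger of the endoplasmic reticulum, read 8.18, 7.99 and 7.83 in control and 8.80, 8.72 and 8.62 with PTH, a difference of 0.71 (SE 0.14, adjusted p 0.0532). All PTH arrays were above all control arrays. A second Slc37a1 probe was detected on no array. The facilitative glucose carriers went both ways without passing the limit. Slc2a1, the widely expressed glucose transporter, had 9.53, 9.50 and 9.46 in control and 9.81, 9.69 and 9.77 with PTH (difference 0.26, adjusted p 0.343). Slc2a3, the high-affinity form, went from 7.92 ± 0.05 to 7.43 ± 0.20 (difference -0.49, adjusted p 0.162). The arrays of each were separate, in opposite directions. Slc2a10 differed by -0.57 (adjusted p 0.151), but its second detected probe differed by 0.07. Slc2a6 differed by -0.48 (adjusted p 0.335) with overlapping arrays. The group median was -0.19.

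Mitochondrial carriers, the family that links the matrix to the cytosol, were the group with most members, 19, and none was called. An unadjusted p under 0.05 was reached by 2, beside 14.7% of genes detected on all 6 arrays. The group's median was 0.06 and its range -0.24 to 0.56, and for 14 of the 19 the confidence interval lay inside 1.5-fold. The phosphate carrier Slc25a3, which supplies phosphate for ATP synthesis, went from 11.23 ± 0.03 to 11.70 ± 0.28 (difference 0.48, adjusted p 0.222), and its second probe differed by 0.29. Its PTH arrays were all higher and more spread out. The adenine nucleotide exchanger Slc25a5 differed by -0.06 (95% confidence interval -0.35 to 0.22). Slc25a24, a calcium-regulated ATP-magnesium and phosphate carrier named after its value was seen, differed by 0.56 (adjusted p 0.31), with a second probe at 0.00.

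No carrier was called in the groups of bicarbonate and anion carriers, cation-chloride cotransporters, or sodium-proton and sodium-calcium exchangers. An unadjusted p under 0.05 was reached by 2 of 5 cation-chloride and 1 of 5 bicarbonate and anion carriers. That share was 14.7% over genes detected on all 6 arrays. Among cation-chloride cotransporters, the sodium-potassium-chloride importer Slc12a2 went from 8.77 ± 0.09 to 9.19 ± 0.11 (difference 0.42, adjusted p 0.176), and its arrays were separate. The chloride and bicarbonate exchanger Slc4a2, which osteoclasts use during acid secretion, differed by 0.14 (95% confidence interval -0.14 to 0.42), and the sodium bicarbonate carrier Slc4a7 by -0.12 (-0.44 to 0.21). Slc4a8, a sodium-driven chloride and bicarbonate exchanger, differed by -0.42 (adjusted p 0.263). All 6 sodium-proton and sodium-calcium exchangers lay below 0, beside 48.3% of genes detected on all 6 arrays. The median of these exchangers was -0.12, and none reached an unadjusted p of 0.05. Slc24a3, a potassium-dependent sodium-calcium exchanger, differed by -0.11 with separate arrays.

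Of 12 zinc and manganese carriers 9 lay below 0, beside 48.3% of genes detected on all 6 arrays. None of the 12 was called and none reached an unadjusted p of 0.05. Slc39a13, whose loss in humans causes a connective tissue disorder with skeletal features, differed by -0.21 (95% confidence interval -0.52 to 0.10). Slc39a14, an importer of zinc and manganese, differed by -0.25, and Slc39a7, which releases zinc from the endoplasmic reticulum, by -0.30 with separate arrays on the probe used. The group median was -0.12, and 0.04 under median scaling, against 0.12 over all genes. Carriers of iron, copper, magnesium and heme had a median of 0.11, and Slc11a1, the divalent metal carrier of phagocyte vacuoles, differed by 0.11 (95% confidence interval -0.25 to 0.47).

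Among vitamin, organic ion and bile acid carriers, the thiamine importer Slc19a2 read 7.47, 7.45 and 7.67 in control and 7.97, 7.99 and 7.93 with PTH (difference 0.44, SE 0.12, adjusted p 0.15). It was the 1 carrier of 7 with separate arrays (14.3%), beside 23.6% of genes detected on all 6 arrays. The vitamin C importer Slc23a2, which serves collagen synthesis, differed by -0.005 (95% confidence interval -0.31 to 0.30). The lactate exporter Slc16a3 differed by -0.47 (adjusted p 0.371) and the nucleoside carrier Slc29a1 by -0.28 (adjusted p 0.535), with a second Slc29a1 probe at 0.13. No carrier of monocarboxylates, of nucleosides and nucleotide sugars, or of choline and fatty acids was called, reached an unadjusted p of 0.05 or had separate arrays.

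Several probes detected on all 6 arrays measured 22 of the 100 carriers. In 14 of these the probes lay on one side of 0, and in 8 they did not, namely Slc2a10, Slc11a1, Slc11a2, Slc22a5, Slc25a38, Slc29a1, Slc30a5 and Slc39a7. The difference between a gene's lowest and highest probe had a median of 0.24 on the log2 scale and reached 0.64 in Slc2a10.

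**Figure D4:**
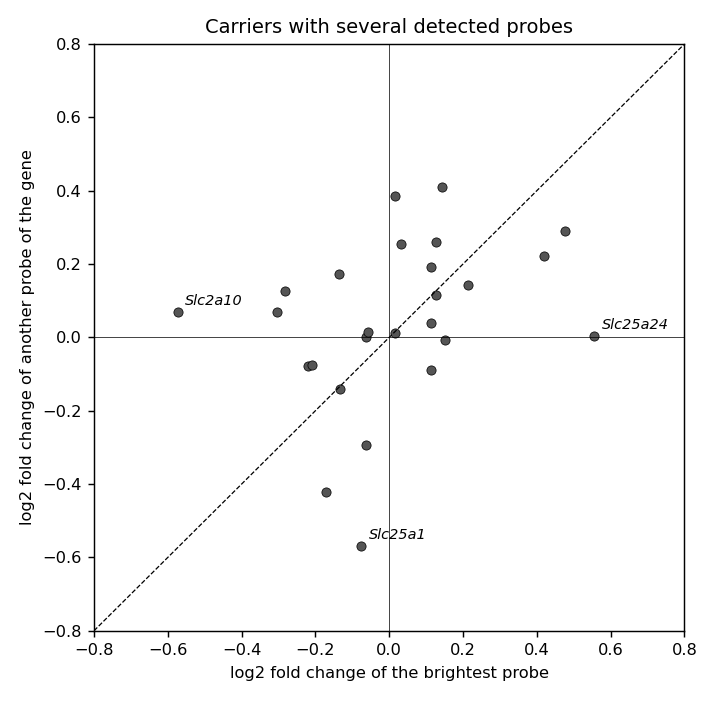
Log2 fold change of the brightest probe (x axis) against that of another detected probe of the same gene (y axis), for the 22 carriers with several probes detected on all 6 arrays, with a dashed line of equality. Slc2a10, Slc25a24 and Slc25a1 lie farthest from the line.

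The promoter windows of the 3 called carriers are shown because PTH acts through cyclic AMP, whose response element is TGACGTCA. The related sequence TGACGCAA and TGATGCAA, a form of the amino acid response element, were also searched on both strands. Each window runs from 250 bases before to 50 bases after the RefSeq start (GRCm38.p6), 5′ to 3′ on the gene's strand, in lower case with a match in capitals. Slc6a4 lies at chr11:76998597-77032343, Slc1a3 at chr15:8634124-8710807 and Slc7a8 at chr14:54722215-54781886.
Slc6a4, chr11:76998347-76998646, plus strand: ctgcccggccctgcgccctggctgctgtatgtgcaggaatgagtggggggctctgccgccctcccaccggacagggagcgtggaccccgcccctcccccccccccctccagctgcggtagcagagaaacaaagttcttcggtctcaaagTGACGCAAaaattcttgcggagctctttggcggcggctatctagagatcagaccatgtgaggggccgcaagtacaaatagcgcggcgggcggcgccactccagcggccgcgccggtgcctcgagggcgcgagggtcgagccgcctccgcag
Slc1a3, chr15:8710758-8711057, minus strand: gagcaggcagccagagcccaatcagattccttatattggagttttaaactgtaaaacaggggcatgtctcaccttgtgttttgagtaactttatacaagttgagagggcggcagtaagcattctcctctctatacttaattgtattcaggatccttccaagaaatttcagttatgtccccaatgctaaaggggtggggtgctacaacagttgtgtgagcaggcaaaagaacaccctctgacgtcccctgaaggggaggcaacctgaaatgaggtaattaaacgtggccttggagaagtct
Slc7a8, chr14:54781837-54782136, minus strand: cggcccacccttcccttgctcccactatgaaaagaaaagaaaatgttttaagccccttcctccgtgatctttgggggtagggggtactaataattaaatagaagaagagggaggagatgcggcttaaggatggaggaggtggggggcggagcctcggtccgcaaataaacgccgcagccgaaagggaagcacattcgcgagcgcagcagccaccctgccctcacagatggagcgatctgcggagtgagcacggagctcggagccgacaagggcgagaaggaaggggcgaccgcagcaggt
The Slc6a4 window held TGACGCAA on the plus strand, beginning 101 bases before the start, and the other windows held none of the 3 sequences. TGACGCAA occurred in 0.49% of all 32851 windows, TGACGTCA in 1.79% and TGATGCAA in 0.895%. Of the 79 detected carriers with a window, Slc6a4 and Slc31a1 held TGACGCAA, Slc25a25 held TGACGTCA, and Slc1a4, Slc7a7 and Slc7a11 held TGATGCAA. A match is a description of letters, and none of these genes apart from Slc6a4 was called. GC content was 67.7% in the Slc6a4 window, 58.0% for Slc7a8 and 45.3% for Slc1a3, beside a median of 52.7% over all windows and 61.3% over the carriers' 114 windows.

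Genes that anchor, power or regulate carriers, together with the related Slco family, gave no call among the 17 tested of 28 listed. An unadjusted p under 0.05 was reached by 5, beside 14.9% of all genes tested, and the list's median was 0.04. The sodium pump regulator Fxyd6 differed by 0.64 (adjusted p 0.0637), the organic anion carrier Slco4a1 by 0.70 (adjusted p 0.0928) and the prostaglandin carrier Slco2a1 by 0.58 (adjusted p 0.248), all with separate arrays. The sodium pump subunit Atp1b1 differed by -0.67 (adjusted p 0.341), a value that rested on PTH 2 at 5.89, beside 6.93 and 7.05 on the other PTH arrays, and was -0.30 without it, an alternative chosen after seeing the data.

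The detection limit left 165 carrier symbols out, 98 of them detected on no array. Just inside the limit, the highest detection p was 0.0363 for Slc9a9, 0.0353 for Slc16a10 and 0.0256 for Slc27a4. Just outside it were Slc12a9 at 0.0566, Slc2a8 at 0.0577 and Slc39a4 at 0.0609. Another 29 carriers were detected on 3 to 5 arrays and tested, and limma called 0 of them, with 0 at an unadjusted p under 0.05. The lactate carrier Slc16a1 and the red cell anion exchanger Slc4a1 were detected on 1 array each, and the sulfate carrier Slc26a2, the sodium-calcium exchanger Slc8a3 and the osteoclast-associated Slc37a2 on none. Detection belongs to a probe, and Slc6a4 and Slc37a1 each had 1 probe detected on all 6 arrays and another on none. A gene without a detected probe is therefore not shown to be unexpressed.

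**Figure D5:**
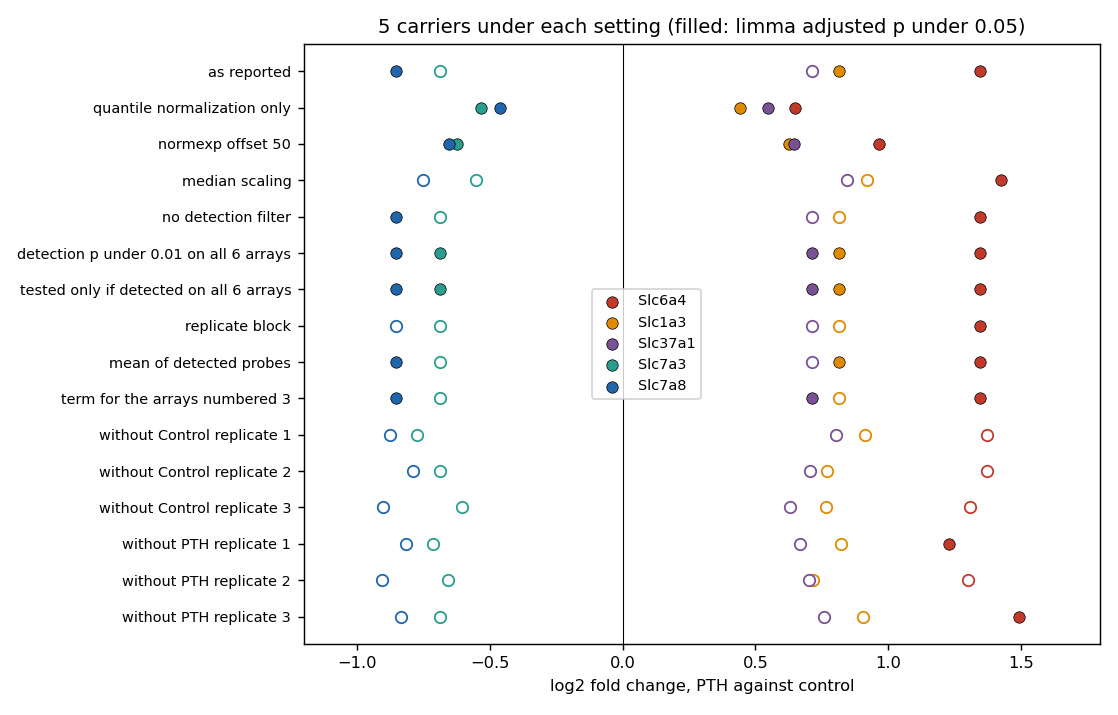
Log2 fold change (x axis) of 5 carriers under the reported processing and each alternative (y axis), filled where the limma adjusted p was under 0.05. Slc6a4 is filled in the 9 limma alternatives drawn here that keep every array, and with 1 array left out no other carrier shown is filled.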

How the data were processed

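Biotinylated cRNA made from total RNA was hybridized to Illumina mouse bead arrays. The authors deposited linear intensity values without normalization, exported from GenomeStudio (version not given in the sources used here), and a detection p-value per probe deposited beside each intensity. Slide positions are not given in the sources used here. Intensities were background-corrected on the negative-control distribution inferred from detection p-values, quantile-normalized and log2-transformed with limma 3.58.1 in R 4.3.3 (neqc, offset 16). Probes detected (p under 0.05) on 3 or more of the 6 arrays were tested (16214 of 45281), with lmFit and eBayes and no covariate, and p-values were adjusted across those probes by Benjamini-Hochberg. A call is an adjusted p under 0.05. A gene is its brightest probe, for carriers among those detected on all 6 arrays. The study used quantile normalization and a score of its own program, which was not rerun. The number of arrays limits precision.

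The members, substrate groups and lists were chosen with earlier results of these data known. Genes were named if called, if they had the largest rise or fall with separate arrays in their substrate group, or if on a list chosen by role. Carriers named outside this rule (Slc6a6, Slc6a8, Slc6a12, Slc6a15, Slc7a7, Slc15a3, Slc15a4, Slc23a2, Slc25a5, Slc25a24 and Slc43a1, and those listed for probe disagreement, motifs or the detection limit) were chosen after their values were seen. Some genes are not reported here. Groups came from the labels. The fit was tested on simulated data of 3 against 3 arrays. It recovered 8% of changes of 0.5 on the log2 scale, 72% of changes of 1 and 98% of changes of 1.5. There were 5 false calls in the simulation of 16214 probes. Symbols are those of the array, and 99 of 100 are current in RefSeq (Slc24a6 is now Slc8b1). Alternatives were other background corrections, scalings, filters, tests and probe rules, and leaving out each array.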

Additional observations from a re-analysis of the deposited data

How the results depend on the processing

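The number of carriers called was sensitive to the processing. Against 2 higher and 1 lower as reported, quantile normalization alone gave 5 and 5 and a normexp offset of 50 gave 4 and 3. Median scaling gave 1 and 0, no detection filter 1 and 1, and testing only probes detected on all 6 arrays 4 and 2. An adjusted p under 0.1 gave 4 and 2, detection p under 0.01 gave 3 and 2, and adjusting over genes 3 and 2. Student's t-test, which the study names in its general statistics but not for these arrays, gave 9 and 11 at an unadjusted p under 0.05. After Benjamini-Hochberg adjustment it gave 0 and 0. With 1 array left out, 0 to 1 were called higher (Slc6a4, without PTH 1 or PTH 3) and 0 to 0 lower, beside 8 and 9 at an unadjusted p under 0.05 with all arrays. Each of these last fits had 1 array fewer. The causes of the changes in the number of calls were not tested.

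In the 9 other limma settings that kept all arrays and the same limit, Slc6a4 was called in 9, Slc7a8 in 7, Slc1a3 and Slc37a1 in 5 and Slc7a3 in 4. One setting, a term for the arrays numbered 3, was chosen after seeing the data. The median over carriers turned from -0.06 to 0.06 under median scaling (0.0646), which put the median of all genes at 0.1162, and ran from -0.0903 to -0.0351 with 1 array left out, highest without Control 2. Differences near 0 changed sign for Slc4a7 (0.0062) under median scaling, for Slc11a1 without Control 3 (-0.0224, range -0.0224 to 0.1837), and with 1 array left out for Slc38a2 (-0.094 to 0.0947), Slc3a2 (-0.4332 to 0.0783) and Slc7a11 (-0.1538 to 0.128).

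The replicate numbers were not taken as pairs, since deviations of same-numbered arrays correlated at 0.067, 0.064 and 0.273, and 1 of 3 control arrays correlated best with its own number. The share of probes detected was nonetheless close between same-numbered control and PTH arrays. It was 34.8 and 34.2% for number 1, 36.3 and 36.1% for number 2, and 38.4 and 38.4% for number 3. Whether same-numbered arrays shared a batch was not tested. With the replicate block, 1 carrier was called higher (Slc6a4) and 0 lower. Signal over background limits Slc6a4, Slc1a3, Slc7a8 and Slc6a12, whose linear signals were 135.7 to 283.4, beside array medians of 111 to 129.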
